A study of Mus musculus with 64 samples.

Results

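Granulocyte-monocyte progenitors (GMP) and megakaryocyte-erythrocyte progenitors (MEP) of mouse fetal livers without Smarcd2 were compared, to see how far the myeloid and the erythroid branch separate in the absence of that gene. Chosen were the 3 Smarcd2 -/- (KO) libraries of the GMP count table and the 4 KO libraries of the MEP count table, 7 of the 64 libraries of the series. The features were the 12911 gene rows that both tables list, of 27892 in the GMP table and 13050 in the MEP table. After a filter on low counts 12458 of them were tested. The same difference was read in Smarcd2 +/- (HET) fetuses, with 7 GMP and 7 MEP libraries, and in Smarcd2 +/+ (WT) fetuses, with 3 GMP and 3 MEP libraries. All groups were livers of C57BL/6 fetuses of 13 to 14 days post coitum, of undetermined sex. How the allele was made is not given in the sources used here. Sorted cells were CD45+, lineage-negative, Sca-1-negative and positive for an antigen that the gate label gives as CD177 and the staining protocol as CD117 (c-kit). GMP were CD34+ with high CD16/32, and MEP were low for both CD34 and CD16/32. The series also holds progenitors of other gates, which were not analysed here.

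Smarcd2 encodes BAF60B, a subunit of the BAF (SWI/SNF) chromatin remodelling complex, which uses ATP to move nucleosomes and open DNA to transcription factors. GMP are committed to granulocytes and monocytes under factors such as PU.1 and the C/EBP family. MEP give rise to red cells and platelets under GATA1, TAL1 and KLF1. BAF60B is known to be needed for the granules of neutrophils, and both branches start from a common myeloid progenitor that still expresses genes of both.

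Smarcd2 was at or near 0 in all 7 KO libraries. On GRCm38 the gene (ENSMUSG00000078619) spans positions 106263179 to 106272972 of chromosome 11 and is read from the minus strand. It had 0, 1.11 and 0.905 CPM (reads of the gene, scaled to a common library size) in KO GMP libraries 6, 13 and 15, and 1.34, 1.64, 1.03 and 0.321 CPM in KO MEP libraries 6, 11, 13 and 15. It averaged 50 ± 23.4 CPM in HET GMP (SD, n = 7) and 57.9 ± 9.95 CPM in HET MEP (n = 7), and 95.2 ± 1.09 CPM in WT GMP and 100.04 ± 21.61 CPM in WT MEP (n = 3 each). Every KO library thus lay far below every WT library, as its label says.

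Gene reads per library ran from 2268883 to 5844188 in KO GMP and from 2488720 to 5444515 in KO MEP, and from 1006090 to 6300070 over all 27 GMP and MEP libraries. Spike-in RNAs took 2.52% to 3.06% of the reads in KO GMP and 0.116% to 0.195% in KO MEP, and at most 0.414% in any HET or WT library, so every KO GMP library lay above all others. A length index, the median level of genes with transcripts over 5000 bases minus that of genes under 1500 bases (log2, each gene centred on its mean over the libraries), was -1.55, 0.1 and -1.58 in KO GMP libraries 6, 13 and 15, and 0.58, 0.21, 0.14 and -1.72 in KO MEP libraries 6, 11, 13 and 15. KO MEP library 15 stood apart: across genes it correlated with the other KO MEP libraries at 0.772 to 0.827, while MEP libraries 11 and 13 reached 0.984 with each other. With the length index as a covariate 2565 genes were called between KO GMP and KO MEP, 1333 of them among the 1352 called without it. The part of the index in the results was not tested further. A high spike-in share and the KO GMP group cannot be told apart. HET GMP library 8 had reads in 27233 genes and a correlation of at most 0.276 with any KO library.

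**Figure D1:**
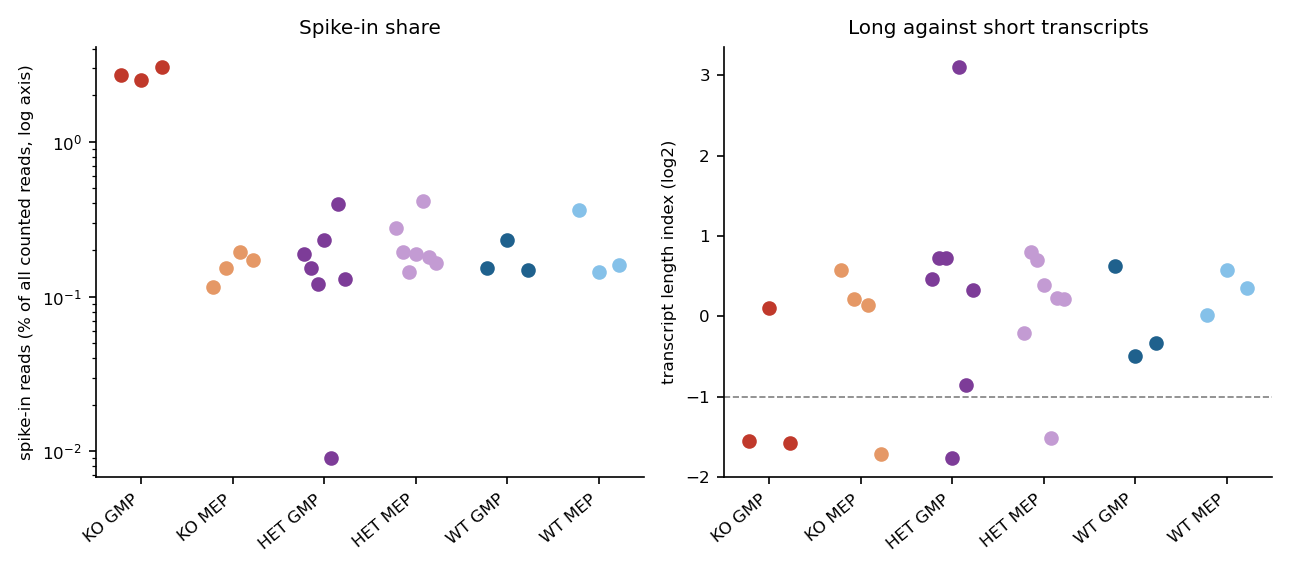
Spike-in share of the counted reads in percent (log axis, left) and transcript length index on the log2 scale (right) for each of the 27 libraries, 1 point a library, in columns by group; the dashed line marks an index of -1. The 3 KO GMP libraries have spike-in shares of 2.52% to 3.06%, above all other libraries, and KO GMP libraries 6 and 15 and KO MEP library 15 lie below the line in the right panel.

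The gates were checked against their markers. Of 9 GMP markers, such as Mpo, Elane and Csf3r, 7 are in both tables and 6 of these were called higher in KO GMP. Irf8 was not called. The 7 markers summed to between 13790 and 29090 CPM in KO GMP, most of it Mpo, against 68.05 to 416.8 CPM in KO MEP. Of the 9 MEP markers, such as Klf1 and Epor, 6 were called lower in KO GMP, while Gata1, Itga2b and Car2 were not called. The 9 markers summed to between 127.4 and 496 CPM in KO GMP, against 1218 to 2644 CPM in KO MEP. Genes of the sorting antigens themselves, such as Cd34 and Fcgr3, are set by the gate and are not read further.

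Without Smarcd2 the branches remained apart at 1352 of 12458 genes (10.9%), by edgeR's quasi-likelihood test with Benjamini-Hochberg adjustment, the test behind every adjusted p given here. Of these, 714 were higher in KO GMP (5.73%) and 638 were lower (5.12%). Not tested were 14981 gene rows of the GMP table alone and 139 of the MEP table alone, so this split covers only genes listed in both. By the median log2 fold change of a list, genes of eosinophils (8.37), of basophils and mast cells (7.78) and of primary granules (5.05) stood highest. Genes of the red cell surface (-2.59), lymphoid genes (-2.24) and the erythroid regulators (-1.95) stood lowest. The median log2 fold change of KO GMP over KO MEP across all genes tested was -0.09, with a median SE of 0.629. The count was 799 without KO GMP library 15, 2274 (851 higher, 1423 lower) without KO GMP library 13 and 581 when only the 7 KO libraries entered the fit. With bulk libraries, fewer cells of a type and less RNA per cell cannot be told apart. Since no label ties a library to a fetus of its own, the p-values measure the spread between libraries, which may be technical. Where KO groups are said below not to overlap, that describes genes mostly named for a small p or a large fold. It is no separate support, and the share over all genes tested is not given here.

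Primary granule genes encode the enzymes of the first neutrophil granules. Of 14 tested, 13 were higher in KO GMP and 0 lower, with a median log2 fold change of 5.05, and Nkg7 was the one not called. Mpo, myeloperoxidase (chromosome 11 from 87793581 to 87804413), had 14334, 11859 and 24730.0 CPM in KO GMP libraries 6, 13 and 15, against 79, 55.4, 106 and 347 CPM in KO MEP libraries 6, 11, 13 and 15. Its log2 fold change was 6.85 ± 1.03 (SE; adjusted p 3.16e-05). The groups did not overlap, and the highest KO MEP value was that of library 15. Prtn3, proteinase 3, had 439, 255 and 736 CPM in KO GMP, against 3.01, 3.42, 5.4 and 19.28 CPM in KO MEP (5.95 ± 0.71; adjusted p 1.44e-06). Ms4a3, a membrane protein used as a mark of GMP descent, had 1438, 1230.4 and 2885 CPM in KO GMP, against 0.67, 0.745, 2.57 and 11.6 CPM in KO MEP (8.92 ± 1.24; adjusted p 1.26e-05). In both genes too every KO GMP library lay above every KO MEP library, and MEP library 15 was the highest of its group.

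The serine proteases Elane, neutrophil elastase, and Ctsg, cathepsin G, were called as well, on lower levels. Elane had 147, 164 and 264 CPM in KO GMP, against 0, 0.298, 1.03 and 6.11 CPM in KO MEP (log2 fold change 6.74 ± 1.49 SE; adjusted p 0.00304). In WT it averaged 3038 ± 1542 CPM in GMP and 12.1 ± 8.86 CPM in MEP (SD, n = 3 each), which is a higher mean than in KO in both populations (not tested within a population), and the GMP-MEP difference in KO minus that in WT was -1.23 ± 1.91 on the log2 scale, which did not pass (adjusted p 1). Ctsg had 145, 169.7 and 391 CPM in KO GMP, against 0.67, 0.893, 2.57 and 6.43 CPM in KO MEP (6.50 ± 1.07; adjusted p 0.000109), and 2445 ± 403 CPM in WT GMP against 10.3 ± 4.56 CPM in WT MEP. The lysozyme gene Lyz2 had 1375, 1486 and 4296 CPM in KO GMP, against 9.71, 15.2, 15.2 and 77.4 CPM in KO MEP (6.35 ± 1.00; adjusted p 6.27e-05).

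The promoter of Mpo is shown because this gene had the highest level of the primary granule genes, and because its window holds the core letters that PU.1, the ETS factor of myeloid cells, is known to bind. The sequence is that of RefSeq, chr11:87793534-87793783 on the plus strand of GRCm38.p6, the 250 bases before the RefSeq start of the gene. The capitals mark AGGAAG on either strand (CTTCCT on the strand shown), found 3 times. The start of Mpo given above is that of GENCODE and lies inside this window, so marked letters fall on both sides of it.
Mpo: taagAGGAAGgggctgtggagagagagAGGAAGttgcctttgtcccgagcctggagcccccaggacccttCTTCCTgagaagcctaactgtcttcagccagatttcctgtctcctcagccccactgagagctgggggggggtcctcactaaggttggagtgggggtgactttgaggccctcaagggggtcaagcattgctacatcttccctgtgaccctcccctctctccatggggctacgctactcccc
AGGAAG, searched on both strands, was present in 43.6% of the 537 called genes higher in KO GMP that have a promoter in the RefSeq table, in 30.7% of the 492 lower ones, and in 32.2% of 8765 tested genes with a promoter. The shares of all 27025 promoters in the table were 32.3% for AGGAAG, 10.8% for the C/EBP letters TTGCNNAA and 11.4% for the GATA letters AGATAA. TTGCNNAA stood in 12.8% of the higher and 7.93% of the lower genes (9.14% of those tested), and AGATAA in 10.1% and 9.35% (7.42%). These are counts of letters in a window, not of bound sites.

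Genes of the secondary and tertiary granules, which neutrophils make later, split into a few that stood high in KO GMP and more that were barely detected. Of 16 in the list 9 are in both tables, and 3 of these were higher (Hp, Ltb4r1 and Cybb) and 0 lower, with a median log2 fold change of 3.1 (3.16 with the genes at 0 reads set to their bound). Hp, haptoglobin, had 100.4, 152 and 167 CPM in KO GMP, against 0, 0, 0.514 and 0.964 CPM in KO MEP (8.61 ± 0.88 SE; adjusted p 1.98e-07). Ltb4r1, a leukotriene B4 receptor of neutrophils, had 70.2, 72.4 and 36 CPM in KO GMP, against 0.335, 0.745, 0.257 and 4.18 CPM in KO MEP (5.47 ± 0.63; adjusted p 9.73e-07). Neither gene overlapped between the groups. Cybb, the catalytic subunit of the phagocyte oxidase, had 1.96, 8.91 and 61.3 CPM in KO GMP, against 3.01, 1.04, 3.6 and 2.89 CPM in KO MEP (3.21 ± 0.78; adjusted p 0.00681). Its groups overlapped, and without KO GMP library 15 the adjusted p was 0.467.

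S100a8, a subunit of calprotectin, had 0.217, 5.2 and 0.905 CPM in KO GMP, against 0, 0, 0 and 0.964 CPM in KO MEP (log2 fold change 3.10 ± 1.52 SE; adjusted p 0.199). In reads this was 19 against 3 over the group, a ratio of CPM of 9.03 with an exact 95% counting interval from 2.66 to 47.6. WT libraries averaged 745 ± 382 CPM in GMP and 8.8 ± 6.31 CPM in MEP (SD, n = 3 each), a log2 fold change of 6.4 (adjusted p 0.00321). The 9 genes of the list summed to between 173.4 and 272 CPM in KO GMP and to between 995.4 and 1836 CPM in WT GMP. The difference of differences (KO minus WT) was called for 0 of the 9 by edgeR, DESeq2 or limma, and 0 had an unadjusted p under 0.05. Of the 7 listed in the GMP table alone, Lcn2, lipocalin 2, averaged 0.323 ± 0.381 CPM in KO GMP and 4.87 ± 0.522 CPM in WT GMP (SD, n = 3 each). Itgb2l, Chil3 and Mmp9 went the other way. Itgb2l averaged 4.29 ± 6.69 CPM in KO GMP and 1.77 ± 0.982 CPM in WT GMP. Chil3 averaged 0.89 ± 1.16 and 0.0538 ± 0.0932 CPM, and Mmp9 0.646 ± 0.761 and 0.0538 ± 0.0932 CPM. The MEP levels of the 7 genes were not analysed here.

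Among 15 granulocyte-monocyte transcription factors 6 were higher in KO GMP (Spi1, Cebpb, Cebpd, Etv6, Hhex and Runx2) and 0 lower, with a median log2 fold change of 1.64. Spi1, which encodes PU.1, had 259, 242 and 450.0 CPM in KO GMP, against 9.71, 5.96, 12.9 and 25.1 CPM in KO MEP (4.57 ± 0.54 SE; adjusted p 1.04e-06). Cebpb, a C/EBP factor of emergency granulopoiesis, had 29.5, 13.4 and 55.2 CPM in KO GMP, against 1.34, 2.23, 3.6 and 6.11 CPM in KO MEP (3.30 ± 0.60; adjusted p 0.000384). Both genes had every KO GMP library above every KO MEP library. Irf8, a factor of monocytes and dendritic cells, overlapped between the groups, with 6.08, 23 and 22.63 CPM in KO GMP, against 5.02, 4.62, 4.11 and 21.9 CPM in KO MEP (0.96 ± 0.53; adjusted p 0.253). WT averaged 83.2 ± 30.6 CPM in GMP and 15.9 ± 7.14 CPM in MEP for this gene (SD, n = 3 each; log2 fold change 2.39, adjusted p 0.0128). The call of Hhex, a homeobox factor, was lost without KO GMP library 15 (adjusted p 0.067), without KO MEP library 11 (0.0686) and without KO MEP library 13 (0.0562). Another 6 factors of the list are in the GMP table alone. Of these Cebpe, which drives late granules, averaged 125 ± 77.4 CPM in KO GMP and 58.8 ± 6.1 CPM in WT GMP, Gfi1, a repressor of the neutrophil lineage, 40.7 ± 10.6 and 57.3 ± 10.3 CPM, and Cebpa, which GMP need to form, 7.45 ± 2.68 and 15.9 ± 16.6 CPM (SD, n = 3 each).

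Of 19 myeloid receptors and adaptors tested, 9 were higher in KO GMP and 0 lower, with a median log2 fold change of 2.46. Csf3r, the receptor for granulocyte colony-stimulating factor (chromosome 4 from 126024550 to 126044440), had 64.1, 92.5 and 59.1 CPM in KO GMP, against 3.35, 2.68, 2.83 and 4.18 CPM in KO MEP (4.46 ± 0.50 SE; adjusted p 5.89e-07). The 3 KO GMP libraries lay close together and far above all 4 KO MEP libraries. Csf2rb, the shared chain of the receptors for GM-CSF, IL-3 and IL-5, had 42.2, 95.4 and 52.3 CPM in KO GMP, against 6.03, 5.21, 6.17 and 6.75 CPM in KO MEP (3.38 ± 0.63; adjusted p 0.000552). Fcer1g, the signalling chain of Fc receptors, had 592, 207 and 715 CPM in KO GMP, against 4.69, 6.999, 6.43 and 58.5 CPM in KO MEP (4.73 ± 0.92; adjusted p 0.000864). Csf1r, the receptor of monocytes for their own growth factor, stood high in 1 library, with 1.3, 111 and 3.85 CPM in KO GMP, against 7.03, 3.72, 5.91 and 11.2 CPM in KO MEP (2.46 ± 0.88; adjusted p 0.0688). Cd93, a surface glycoprotein, was called, and its call was lost without KO GMP library 15 (adjusted p 0.361) or 6 (0.0585) and without KO MEP library 6 (0.0669), 11 (0.137) or 13 (0.144).

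The promoter of Csf3r is shown as that of the receptor with the tightest KO GMP values among those above; it is RefSeq sequence, chr4:126024409-126024658 on the plus strand of GRCm38.p6, 250 bases before the RefSeq start. Capitals again mark AGGAAG on either strand, found 4 times. The GENCODE start of Csf3r given above lies inside this window too, with marked letters on both sides of it.
Csf3r: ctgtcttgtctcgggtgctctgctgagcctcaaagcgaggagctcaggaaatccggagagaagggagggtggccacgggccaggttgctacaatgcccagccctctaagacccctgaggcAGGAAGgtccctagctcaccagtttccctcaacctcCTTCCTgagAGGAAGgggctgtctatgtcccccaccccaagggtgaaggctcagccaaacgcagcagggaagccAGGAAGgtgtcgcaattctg

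Of 16 monocyte genes tested, 6 were higher in KO GMP (Ccl9, Cd68, F13a1, Lgals3, Ms4a6c and Pld4) and 0 lower, with a median log2 fold change of 1.83. F13a1, a coagulation factor subunit made by monocytes, had 33.5, 91.3 and 72.4 CPM in KO GMP, against 1.00, 2.53, 1.54 and 3.86 CPM in KO MEP (4.85 ± 0.81 SE; adjusted p 0.000127). Ccl9, a chemokine, had 164, 109 and 218 CPM in KO GMP, against 7.03, 4.02, 6.68 and 11.6 CPM in KO MEP (4.49 ± 0.56; adjusted p 2.45e-06). Neither overlapped. The lysosomal gene Cd68 lost its call without KO GMP library 15 (adjusted p 0.154). Ly6c2, a surface antigen of monocytes, had 0.435, 2.6 and 0.226 CPM in KO GMP, against 0, 0, 0.771 and 0.643 CPM in KO MEP (1.48 ± 1.11; adjusted p 0.434). WT averaged 166 ± 41.5 CPM in GMP and 0.562 ± 0.222 CPM in MEP for Ly6c2 (SD, n = 3 each; log2 fold change 8.13, adjusted p 2.16e-05). The GMP-MEP difference of Ly6c2 was -6.65 ± 1.74 in KO relative to WT, with an unadjusted p of 0.000666 and an adjusted p of 0.189. Its relative Ly6c1, in the GMP table alone, averaged 1.00 ± 1.15 CPM in KO GMP and 25.2 ± 5.32 CPM in WT GMP.

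Genes of eosinophils had the largest median difference of the lists. Of 7 tested, 6 were higher in KO GMP and 0 lower, with a median log2 fold change of 8.37 in KO, 7.38 in HET and 4.67 in WT. In HET all 7 were called higher, and the median of the difference of differences was 0.62 for KO minus HET. Prg2, eosinophil major basic protein, had 8563, 1367 and 19123 CPM in KO GMP libraries 6, 13 and 15, against 6.36, 0, 3.86 and 53.3 CPM in KO MEP (9.26 ± 2.03 SE; adjusted p 0.00288). Its relative Prg3 had 1364, 512 and 1607 CPM in KO GMP, against 1.00, 0.298, 1.29 and 2.57 CPM in KO MEP (9.86 ± 1.32; adjusted p 7.14e-06), the largest rise named here. In both genes KO GMP library 13 was the lowest of its group, and no KO MEP library reached it. Epx, eosinophil peroxidase, had 108, 4.08 and 49.1 CPM in KO GMP, against 0.335, 0, 0 and 0.321 CPM in KO MEP (adjusted p 1.26e-05). It had 723 reads in KO GMP and 2 in KO MEP, a ratio of CPM of 515 with an exact 95% counting interval from 142 to 4264. Siglecf, a surface lectin of eosinophils, had 57.8, 149 and 163 CPM in KO GMP, against 3.35, 2.83, 5.4 and 3.53 CPM in KO MEP (5.02 ± 0.50; adjusted p 1.43e-07). Ear2, a ribonuclease with close paralogs between which reads may be split, had 15 reads in KO GMP and 0 in KO MEP, at least 7.13-fold higher (floor of 3 reads over the group), so its call (adjusted p 0.0357) rests on few reads. The 7 genes summed to between 2048 and 21240 CPM in KO GMP and to between 1204 and 2061 CPM in WT GMP. The difference of differences (KO minus WT) passed for 0 of the 7 genes by edgeR, DESeq2 or limma, with 2 at an unadjusted p under 0.05; for Prg3 it was 3.5 ± 1.59 (adjusted p 0.933).

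All 5 basophil and mast cell genes tested were higher in KO GMP, with a median log2 fold change of 7.78 in KO, 5.27 in HET and 6.12 in WT. Hdc, which makes histamine, had 946, 1014 and 875 CPM in KO GMP, against 1.00, 0.745, 2.31 and 2.57 CPM in KO MEP (9.16 ± 0.91 SE; adjusted p 1.43e-07). Cpa3, the carboxypeptidase of mast cells (chromosome 3 from 20215620 to 20242181), had 2519, 1331 and 1812 CPM in KO GMP, against 3.35, 7.59, 9.77 and 13.5 CPM in KO MEP (7.78 ± 0.77; adjusted p 1.43e-07). All 3 KO GMP libraries were high and none came near a KO MEP library. WT averaged 243 ± 79 CPM in GMP and 10.3 ± 5.34 CPM in MEP for Cpa3 (SD, n = 3 each), and the GMP-MEP difference was 3.23 ± 0.92 larger in KO than in WT, with an unadjusted p of 0.0016 and an adjusted p of 0.332. Il1rl1, the receptor for interleukin 33, had 71.3, 48.6 and 56.6 CPM in KO GMP, against 3.68, 4.91, 3.34 and 5.78 CPM in KO MEP (3.72 ± 0.61; adjusted p 0.000109). In WT it averaged 10.4 ± 1.93 CPM in GMP and 11.55 ± 5.19 CPM in MEP, and its difference of differences was 3.90 ± 0.87 (KO minus WT; adjusted p 0.105). Over the 5 genes the difference of differences (KO minus WT) had an unadjusted p under 0.05 for 3 and was called for 0 by edgeR, 2 by DESeq2 and 1 by limma. The list's 5 genes summed to between 2436 and 3840 CPM in KO GMP and to between 535.1 and 992.7 CPM in WT GMP, which did not overlap. Another 7 genes of the list are in the GMP table alone: Cma1, mast cell chymase, averaged 198 ± 248 CPM in KO GMP and 25 ± 21.12 CPM in WT GMP, and Mcpt8, a basophil protease, 1.09 ± 1.88 and 18.2 ± 13.9 CPM.

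**Figure D2:**
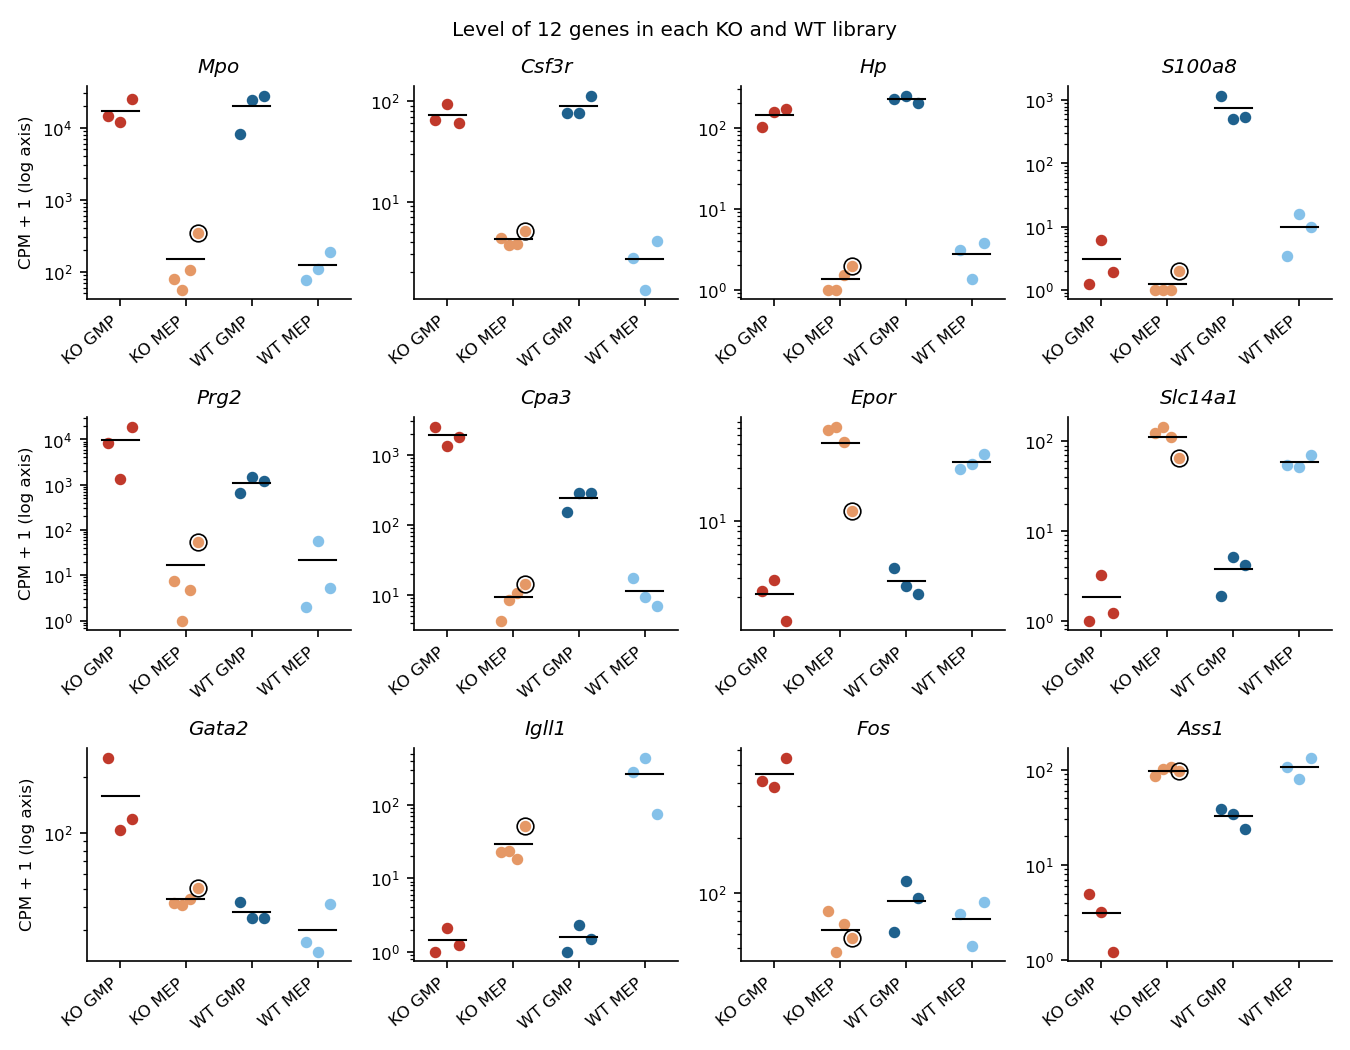
CPM + 1 (log axis) of 12 genes in KO GMP, KO MEP, WT GMP and WT MEP libraries, 1 point a library with a bar at the group mean; the ring marks KO MEP library 15. Mpo, Csf3r, Hp, Prg2 and Cpa3 lie above in KO GMP, Epor, Slc14a1, Igll1 and Ass1 above in KO MEP, and Fos and Gata2 are higher in KO GMP while their WT populations lie close together.

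On the erythroid side, 9 of 20 transcription factors and receptors were lower in KO GMP than in KO MEP and 1 was higher, with a median log2 fold change of -1.95. Epor, the erythropoietin receptor (chromosome 9 from 21958897 to 21963506), had 1.3, 1.86 and 0.226 CPM in KO GMP, against 66.6, 71, 51.4 and 11.2 CPM in KO MEP (-5.50 ± 0.82 SE; adjusted p 3.09e-05). Tal1, a partner of GATA1, had 9.13, 9.28 and 0.453 CPM in KO GMP, against 79, 68.2, 62.2 and 80.3 CPM in KO MEP (-3.54 ± 0.72; adjusted p 0.00144). Klf1, the erythroid Krüppel-like factor, had 21.29, 4.46 and 14.9 CPM in KO GMP, against 116, 158, 138 and 792 CPM in KO MEP (-4.46 ± 1.06; adjusted p 0.00613). None of these 3 genes overlapped, although MEP library 15 was the lowest of its group for Epor and the highest for Klf1. Gata1, the main erythroid GATA factor, had 134, 58.3 and 13.8 CPM in KO GMP, against 164, 174, 178 and 421 CPM in KO MEP (-1.77 ± 0.74; adjusted p 0.127): KO GMP library 6 came close to the KO MEP libraries.

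Gata2, which acts in early progenitors and in mast cells, was the 1 gene of that list higher in KO GMP. It had 252, 102 and 118 CPM in KO GMP, against 40.9, 39.8, 42.9 and 49.2 CPM in KO MEP (log2 fold change 1.87 ± 0.37 SE; adjusted p 0.00117). In WT it averaged 36.2 ± 4.29 CPM in GMP and 29 ± 10 CPM in MEP (SD, n = 3 each; log2 fold change 0.31, adjusted p 0.844). The difference of differences was 1.55 ± 0.55 (KO minus WT), with an unadjusted p of 0.00886 and an adjusted p of 0.646.

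The promoter of Epor is shown as that of the erythroid receptor with the largest fold, and because GATA1 is known to act on this gene. It is RefSeq sequence, chr9:21963577-21963826 on the minus strand of GRCm38.p6, written in the direction of the gene; capitals mark the single AGATAA, which reads TTATCT on the strand shown.
Epor: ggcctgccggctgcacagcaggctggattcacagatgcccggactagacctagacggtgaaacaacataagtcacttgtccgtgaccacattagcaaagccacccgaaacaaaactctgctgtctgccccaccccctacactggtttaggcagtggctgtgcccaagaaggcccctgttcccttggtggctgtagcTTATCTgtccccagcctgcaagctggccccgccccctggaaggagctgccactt

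Of 24 genes of the red cell membrane and surface, 12 were lower in KO GMP and 0 higher, with a median log2 fold change of -2.59 in KO, -1.63 in HET and -2.6 in WT. DESeq2 called 17 lower in KO GMP and limma 5. Over all 12458 genes DESeq2 called 883 higher and 1299 lower in KO GMP, and limma 1034 and 465. List counts of these tools in the KO contrast, here and below, are to be read beside those totals. Slc14a1, the urea transporter that carries the Kidd blood group, had 0, 2.23 and 0.226 CPM in KO GMP, against 123, 145, 110.3 and 63.6 CPM in KO MEP (-7.28 ± 1.09 SE; adjusted p 3.1e-05). Rhag, the Rh-associated glycoprotein, had 12.4, 4.08 and 0.226 CPM in KO GMP, against 165, 176, 169.7 and 54.3 CPM in KO MEP (-4.64 ± 0.89; adjusted p 0.000724). Ermap, an erythroid membrane protein, had 18, 1.11 and 0.453 CPM in KO GMP, against 179, 191, 163 and 172 CPM in KO MEP (-4.71 ± 1.07; adjusted p 0.00389). The groups of these genes did not overlap, and KO GMP library 15 was the lowest for Rhag and Ermap. Sptb, the beta chain of spectrin, was called, and lost its call without KO GMP library 15 (adjusted p 0.0848) or 6 (0.0873).

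Of 21 globin and heme genes, 4 were lower in KO GMP (Cpox, Hebp1, Slc25a38 and Tspo2) and 0 higher, with a median log2 fold change of -1.45. DESeq2 called 6 lower and limma 2. Cpox, an enzyme of heme synthesis, had 15, 16.7 and 3.85 CPM in KO GMP, against 608, 415, 494 and 219 CPM in KO MEP (-5.20 ± 0.72 SE; adjusted p 1.14e-05), without overlap. Hebp1, a heme-binding protein, had 1 read in KO GMP and 91 in KO MEP, a ratio of CPM of 0.0157 with an exact 95% counting interval from 0.000392 to 0.0895. The call of Slc25a38, a mitochondrial glycine carrier, was lost on leaving out KO GMP library 13 or 15 or KO MEP library 6, 11 or 13 (adjusted p 0.0513 to 0.15), and that of Tspo2, a cholesterol-binding membrane protein, on leaving out any KO library but GMP 6 (0.0505 to 0.183). The adult alpha globin gene Hba-a1, which shares reads with its near-identical copy, had 1232, 39.4 and 99.8 CPM in KO GMP, against 154, 233, 381 and 1145 CPM in KO MEP (-0.06 ± 1.11; adjusted p 0.982). The beta globin gene Hbb-bs likewise had 949, 31.2 and 64.7 CPM in KO GMP, against 176, 262, 506 and 605 CPM in KO MEP (-0.15 ± 1.08; adjusted p 0.955). For both globins KO GMP library 6 was as high as the highest KO MEP library or higher, and the groups overlapped.

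Of 24 megakaryocyte and platelet genes 4 were lower in KO GMP (F2r, F2rl2, Mef2c and Pf4) and 0 higher, with a median log2 fold change of -0.77. DESeq2 called 7 lower and limma 2. F2r, a thrombin receptor, had 4.78, 3.34 and 10.6 CPM in KO GMP, against 187, 154, 165 and 33.7 CPM in KO MEP (-4.41 ± 0.84 SE; adjusted p 0.000663), without overlap. Pf4, platelet factor 4, had 17.6, 11.1 and 46.2 CPM in KO GMP, against 75.7, 109, 80.2 and 704 CPM in KO MEP (-3.27 ± 0.92; adjusted p 0.0201). Its call was lost without KO MEP library 15 (adjusted p 0.101), without KO GMP library 6 (0.0825) and without KO GMP library 13 (0.051). Itga2b, the platelet integrin CD41, overlapped between the groups, with 19.8, 62.7 and 43.4 CPM in KO GMP, against 48.9, 35.7, 42.7 and 36.3 CPM in KO MEP (0.04 ± 0.47; adjusted p 0.977).

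**Figure D3:**
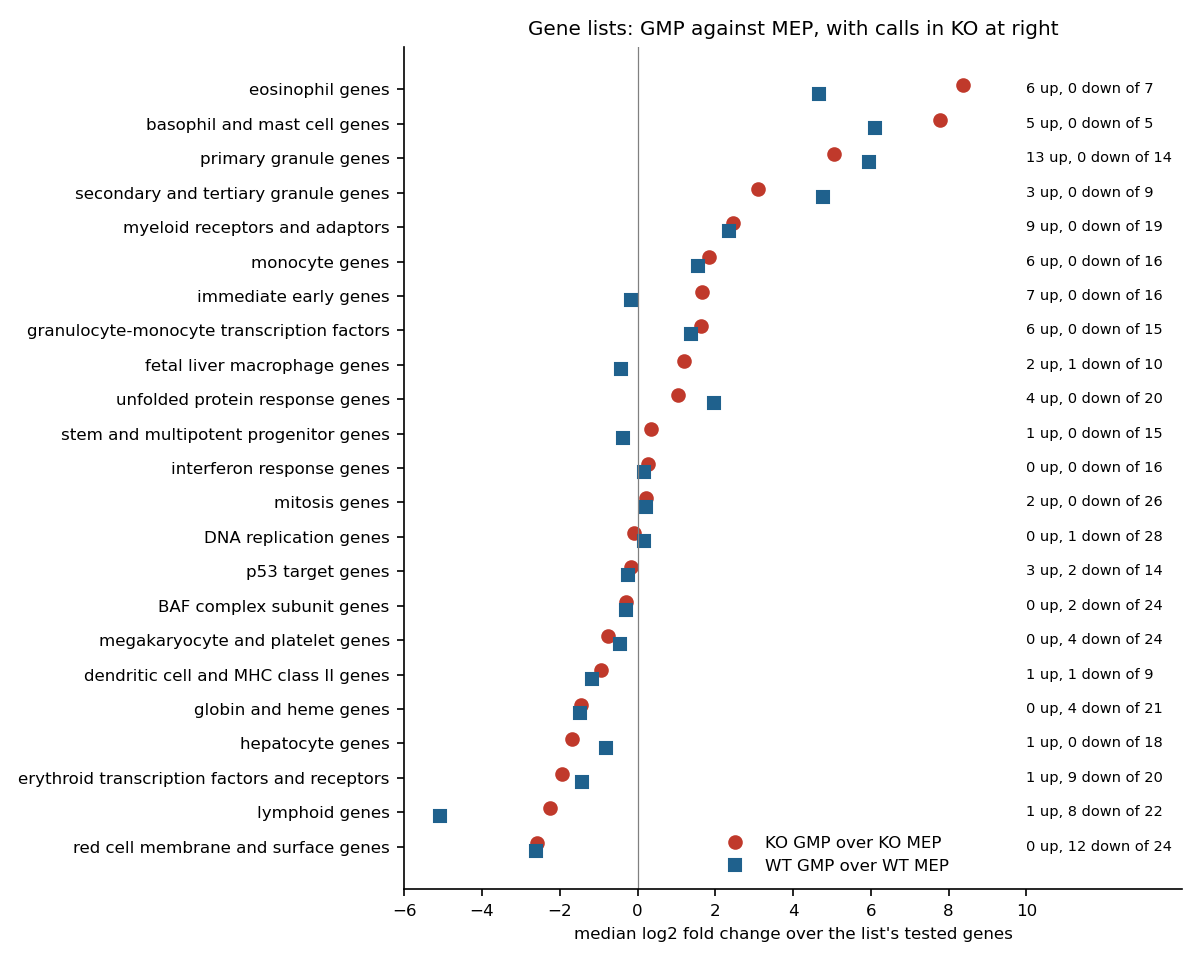
Median log2 fold change of GMP over MEP for each gene list, in KO (circles) and in WT (squares), with the number of genes called higher and lower in KO at the right. Eosinophil and basophil lists reach medians of 8.37 and 7.78 in KO, red cell membrane genes -2.59, and the immediate early list is at 1.66 in KO and -0.16 in WT.

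The 12 largest rises among called genes, at a mean log2 CPM over the 7 KO libraries of 1 or more and leaving out predicted genes and sorting antigens, were those of Prg3, Stfa1, Prg2, Hdc, Ms4a3, Ear6, Hp, Epx, Pla2g7, Prss34, Pglyrp1 and Igsf6. Stfa1, a cysteine protease inhibitor of the stefin family whose paralogs may share its reads, had 619, 301 and 1049.9 CPM in KO GMP, against 0, 0.298, 1.03 and 2.25 CPM in KO MEP (log2 fold change 9.54 ± 1.29 SE; adjusted p 8.42e-06). Pla2g7, which breaks down platelet-activating factor, had 105, 33.4 and 154 CPM in KO GMP, against 0.335, 0, 0 and 0.964 CPM in KO MEP (8.35 ± 1.19; adjusted p 1.84e-05). WT averaged 5.85 ± 4.3 CPM in GMP and 1.95 ± 1.89 CPM in MEP for Pla2g7 (SD, n = 3 each), and its difference of differences was 6.66 ± 1.57 (KO minus WT; adjusted p 0.124).

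The 12 largest falls were those of Mc2r, Ache, Pklr, Klf9, Zdhhc14, Rfx2, St3gal6, Mmrn1, Prss50, Tmem56, Slc14a1 and Serpinb2, of which 7 had no read in KO GMP. Ache, acetylcholinesterase, which red cells carry on their surface, had 0 reads in KO GMP, against 13.7, 10.3, 8.997 and 12.5 CPM in KO MEP, so that it was at least 43.0-fold lower (adjusted p 0.00639). Bounds were at least 41.4-fold lower for Mc2r, the receptor for corticotropin, at least 33.7-fold for Klf9, a Krüppel-like factor, at least 27.1-fold for Zdhhc14, a protein acyltransferase, at least 26.4-fold for Rfx2, a transcription factor, at least 21-fold for Tmem56 and at least 20.8-fold for Serpinb2, a protease inhibitor. Pklr, the pyruvate kinase of liver and red cells, had 0.217, 0.371 and 0 CPM in KO GMP, against 81, 59.4, 64.5 and 25.4 CPM in KO MEP. It had 2 reads in KO GMP and 971 in KO MEP, a ratio of CPM of 0.00294 with an exact 95% counting interval from 0.000355 to 0.0106 (adjusted p 1.02e-06). Reads of PCR-amplified libraries without molecular identifiers are not independent molecules, so intervals and floors cover counting error only.

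Markers of other cell types moved with the branches as follows. Of 22 lymphoid genes 8 were lower in KO GMP, 1 higher (Il2rg), with a median log2 fold change of -2.24. Igll1, the surrogate light chain of early B cells, had 0, 1.11 and 0.226 CPM in KO GMP, against 22.1, 22.64, 17.5 and 51.4 CPM in KO MEP (-6.14 ± 1.30 SE; adjusted p 0.00204), without overlap. In WT it averaged 0.595 ± 0.658 CPM in GMP and 265 ± 183 CPM in MEP (SD, n = 3 each). The 22 genes summed to between 195.3 and 437.6 CPM in KO GMP, to between 206.1 and 382.7 CPM in KO MEP and to between 558.6 and 2677 CPM in WT MEP, and in WT 14 were lower in GMP with a median of -5.09. The difference of differences (KO minus WT) was positive for 21 of 22, had an unadjusted p under 0.05 for 7, and was called for 0 by edgeR, 2 by DESeq2 and 0 by limma. Its median over all genes tested was -0.133, and the 22 signs rest on the same libraries, so they are not separate observations. In the KO contrast itself limma called 0 lymphoid genes lower. Il2rg, the common cytokine receptor chain, Lck, a kinase of T cells, and Vpreb3, a surrogate light chain partner of early B cells, lost their calls without KO GMP library 15 (adjusted p of Il2rg 0.0934, Vpreb3 0.0711) or 6 (Il2rg 0.162, Lck 0.0614, Vpreb3 0.0694), and Il2rg also without KO MEP library 6 (0.0796), 11 (0.127) or 13 (0.113) and Lck without KO MEP library 15 (0.05).

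Of 10 macrophage genes tested 2 were higher in KO GMP and 1 lower, Slc40a1, the iron exporter, which erythroid cells also express. Adgre1, the antigen F4/80 of macrophages and eosinophils, had 58.7, 139 and 141 CPM in KO GMP, against 0, 0.447, 1.03 and 1.61 CPM in KO MEP (log2 fold change 7.17 ± 1.03 SE; adjusted p 1.84e-05). C1qb, a complement subunit, had all 49 of its KO GMP reads in library 6, with adjusted p 0.0443, a log2 fold change of -1.49 without that library (adjusted p 0.719), and no call without KO MEP library 6 (0.102), 11 (0.131) or 13 (0.112). The 10 genes summed to between 82.78 and 191.6 CPM in KO GMP and to between 33.74 and 52.69 CPM in KO MEP. Of 4 macrophage genes listed in the GMP table alone, Timd4 had 28 reads over KO GMP, Trem2 20 and Cd163 13. The fourth, Folr2, a folate receptor of macrophages, had 0 reads in KO GMP and 0 CPM in WT GMP. Of 9 dendritic cell and MHC class II genes 1 was higher (H2-DMa) and 1 lower (Zbtb46), with a median of -0.95 (-0.20 at the bounds). H2-DMa lost its call without KO GMP library 15 (adjusted p 0.08), and Zbtb46 without KO GMP library 15 (0.0721) or 6 (0.0713). Of 18 hepatocyte genes 1 was higher (Apoc1) and 0 lower by edgeR (3 lower by DESeq2, 0 by limma). Over all genes tested 5.73% were higher, so the share called higher in this list is near the background. The hepatocyte median was -1.69 (-1.78 at the bounds). Hepatocyte sums ran from 59.41 to 190.1 CPM in KO GMP and from 28.29 to 661.4 CPM in KO MEP. The part of these cells in the results was not tested.

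Of 28 DNA replication genes 0 were higher and 1 was lower in KO GMP, Pola1, a DNA polymerase subunit, with a median log2 fold change of -0.08. Of 26 mitosis genes 2 were higher, the kinases Cdk1 and Aurkb, and 0 lower, with a median of 0.22. Over all genes tested 5.73% were higher and 5.12% lower, so the called shares of these lists lie near the background or below it. DESeq2 called 3 replication genes lower and 4 mitosis genes higher, and limma 2 and 3. None of these 3 edgeR calls was held by every fit that left out 1 library: adjusted p reached 0.15 for Pola1 without KO GMP library 6, and 0.241 for Cdk1 and 0.0882 for Aurkb without KO GMP library 15, and calls were lost also without KO GMP library 6 (Cdk1 0.0718, Aurkb 0.0663), KO MEP library 11 (Pola1 0.0741, Cdk1 0.0828, Aurkb 0.0859), 13 (Pola1 0.0558, Cdk1 0.0749, Aurkb 0.0776), 6 (Pola1 0.0767, Cdk1 0.0859) and 15 (Cdk1 0.0746). Of 16 interferon response genes 0 were called in either direction by edgeR, 1 lower by DESeq2 and 1 higher by limma, with a median of 0.27. An unadjusted p under 0.05 was had by 3 of them, against 25.6% of all genes tested.

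Immediate early genes are those that cells switch on within minutes of a stimulus. Of 16 tested, 7 were higher in KO GMP (Dusp1, Dusp2, Egr1, Fos, Ier3, Ier5 and Klf6) and 0 lower, with a median log2 fold change of 1.66, and 9 were not called (Fosb, Fosl2, Ier2, Jun, Junb, Jund, Klf2, Nr4a1 and Zfp36). Of the 16 fold changes 13 were positive and 3 negative. In HET 2 were called higher and 0 lower, with a median of 0.06. In WT edgeR called 0 in either direction, DESeq2 1 higher and 1 lower and limma 4 and 4, with a median of -0.16. Over all 12458 genes limma called 2829 higher and 3110 lower in WT, so its calls in this list are near its background. In that WT contrast 2 had an unadjusted p under 0.05, against 12.9% of all genes tested. Fos, a subunit of the AP-1 factor, had 407, 378 and 546 CPM in KO GMP, against 79, 46.9, 67.1 and 55.6 CPM in KO MEP (2.84 ± 0.43 SE; adjusted p 3.3e-05). Egr1, a zinc finger factor, had 83.4, 103 and 203 CPM in KO GMP, against 40.2, 21.9, 29 and 48.8 CPM in KO MEP (1.89 ± 0.42; adjusted p 0.00291). Both were high in all 3 KO GMP libraries, without overlap. In WT, Fos averaged 89.2 ± 27.6 CPM in GMP and 71.6 ± 19.599 CPM in MEP, and Egr1 11 ± 1.01 and 17.9 ± 1.15 CPM (SD, n = 3 each). The differences of differences were 2.51 ± 0.61 for Fos (KO minus WT; unadjusted p 0.000322, adjusted p 0.127) and 2.6 ± 0.63 for Egr1 (unadjusted p 0.00028, adjusted p 0.126). Against HET the value for Fos was 2.21 ± 0.51 (adjusted p 0.0575). Over the 16 genes the difference of differences (KO minus WT) was called for 0 by edgeR, 3 by DESeq2 and 1 by limma, with 5 at an unadjusted p under 0.05. Ier5 lost its call without KO GMP library 15 (adjusted p 0.175) or 6 (0.0637) and without KO MEP library 6 (0.0951), 11 (0.0596) or 15 (0.0605).

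Of 14 p53 target genes 3 were higher in KO GMP (Cdkn1a, Perp and Pmaip1) and 2 lower (Ccng1 and Sesn2), with a median log2 fold change of -0.18. Cdkn1a, the inhibitor p21 of the cell cycle, had 89.3, 105 and 73.1 CPM in KO GMP, against 5.02, 6.85, 12.3 and 17.4 CPM in KO MEP (3.10 ± 0.51 SE; adjusted p 0.000104), without overlap. Pmaip1, which promotes cell death, lost its call without KO GMP library 13 (adjusted p 0.109), and Sesn2, a stress sensor, without KO GMP library 6 (0.0885). Of 20 genes of the unfolded protein response 4 were higher (Calr, Edem1, Hspa5 and Xbp1) and 0 lower, with a median of 1.03, while DESeq2 called 6 higher and 1 lower and limma 10 higher. In WT 7 were higher, with a median of 1.97. The difference of differences (KO minus WT) was negative for all 20, with 1 at an unadjusted p under 0.05 and 0 called by edgeR, DESeq2 or limma. Its median over all genes tested was -0.133, and the 20 signs rest on the same libraries, so they are not separate observations. Edem1, which sends misfolded proteins to degradation, had 90.6, 120.3 and 187 CPM in KO GMP, against 32.5, 28.6, 30.3 and 29.2 CPM in KO MEP (2.13 ± 0.39; adjusted p 0.000374). The chaperone Hspa5 lost its call without KO GMP library 15 (adjusted p 0.159) or 6 (0.0811) and without KO MEP library 6 (0.0842), 11 (0.121) or 13 (0.113), and Xbp1, the factor that drives this response, without KO GMP library 15 (0.0706) and without KO MEP library 11 (0.0733) or 13 (0.0565).

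Of 24 other subunit genes of the BAF complex 2 were lower in KO GMP and 0 higher, with a median log2 fold change of -0.29. Over all genes tested 5.73% were higher and 5.12% lower. The called shares of this list and of the stem cell genes below lie near that background or below it. Bcl11a, which also represses fetal globin, had 12.8, 17.8 and 11.54 CPM in KO GMP, against 111, 135, 124 and 113 CPM in KO MEP (-3.11 ± 0.45 SE; adjusted p 2.33e-05). Smarcd1, the BAF60A paralog of Smarcd2, had 1.74, 5.94 and 0.453 CPM in KO GMP, against 12.1, 14.6, 11.6 and 25.7 CPM in KO MEP (-2.61 ± 0.78; adjusted p 0.0286), and lost its call without KO GMP library 15 (0.135) or 6 (0.103) and without KO MEP library 6 (0.0515). Smarcd3, which encodes the third paralog, had 1 read over the 3 KO GMP libraries. Of 15 stem cell genes 1 was higher in KO GMP, Hmga2, a chromatin protein of fetal progenitors, with 91.3, 91.3 and 62.7 CPM in KO GMP, against 24.11, 24.9, 24.4 and 27.3 CPM in KO MEP (1.70 ± 0.32; adjusted p 0.000653). The list summed to 2413 CPM in KO MEP library 15 and to between 368.1 and 467.3 CPM in the other KO MEP libraries. In KO GMP it summed to 2080, 728.5 and 2327 CPM in libraries 6, 13 and 15. WT sums ran from 265.8 to 313.8 CPM in GMP and from 207.5 to 230.7 CPM in MEP. KO GMP libraries 6 and 15 and KO MEP library 15 also had the lowest length indices of the KO libraries, a link that was not tested.

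The same contrast in HET and WT fetuses gave the measure of how far the branches separate with Smarcd2. HET GMP differed from HET MEP at 1393 genes (11.2% of those tested), of which 994 were higher (7.98%) and 399 lower (3.2%), and WT GMP from WT MEP at 519 (4.17%), of which 353 were higher (2.83%) and 166 lower (1.33%). The numbers of libraries differ between the genotypes, so these counts do not rank them. The KO and WT contrasts share no library, but both come from the same fit, with a shared filter and a shared estimate of each gene's spread. Their calls are thus not independent. In both contrasts 381 genes were called, which is 28% of the KO calls and 73% of the WT calls, and 379 of them had the same direction. Of the 519 genes called in WT, 504 had the same sign in KO, and the log2 fold changes correlated across these genes at r = 0.867, and across all 12458 genes at r = 0.633 (genes are not independent replicates, and the 519 were chosen by their WT difference). Between KO and HET 644 genes were called in both, 47.3% of the KO and 45.9% of the HET calls, 639 of them in the same direction.

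**Figure D4:**
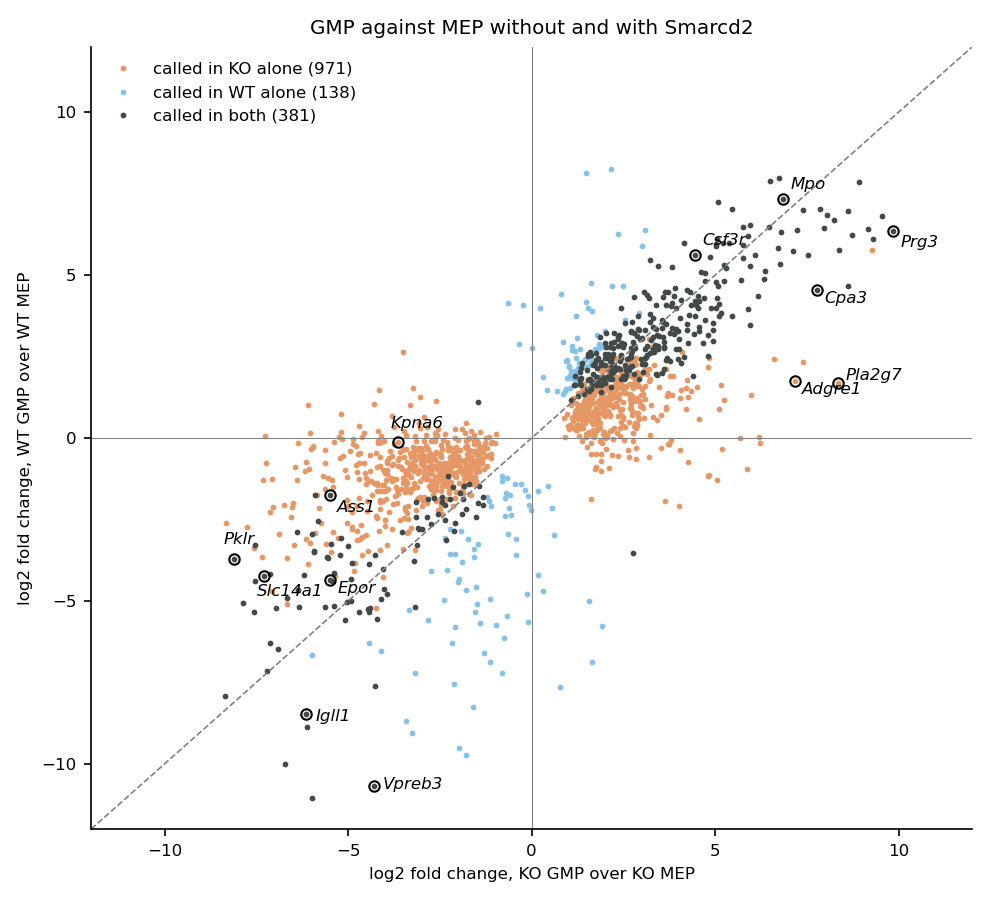
Log2 fold change of GMP over MEP in KO (horizontal) against that in WT (vertical), 1 point a gene, for genes called in KO alone (971), in WT alone (138) or in both (381), coloured by that class; genes called in neither are not drawn, rings mark genes named in the text, and the dashed line marks equal differences. Of the 381 genes called in both, 379 lie in the upper right or the lower left.

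Whether the difference itself changed with the genotype was tested gene by gene. The GMP-MEP difference in KO departed from that in WT at 5 of 12458 genes (0.0401%), 0 of them positive (0%) and 5 negative (0.0401%). An unadjusted p under 0.05 was had by 624 genes (5.01%), close to the share that this threshold lets through by chance. The counts of list genes given above for KO minus WT at that threshold are to be read beside this share. The 5 are Ass1, Kpna6, Cep83os, Gm5424 and 4930523C07Rik. Ass1, argininosuccinate synthase of arginine synthesis (chromosome 2 from 31470207 to 31520672), had 3.91, 2.23 and 0.226 CPM in KO GMP, against 85.7, 101, 105 and 96.7 CPM in KO MEP. WT averaged 31.4 ± 7.48 CPM in GMP and 106 ± 26.5 CPM in MEP (SD, n = 3 each). The KO MEP levels lay within 1 SD of the WT MEP mean, the KO GMP levels lay below all others, and the difference of differences was -3.73 ± 0.66 (SE; adjusted p 0.0215). Gm5424 is a copy of Ass1 and may share its reads, so it is no separate observation. Kpna6, a nuclear import receptor, had 1.74, 3.71 and 1.58 CPM in KO GMP, against 36.2, 23.2, 23.4 and 31.8 CPM in KO MEP, and averaged 18.5 ± 8.15 CPM in WT GMP and 19.9 ± 4.18 CPM in WT MEP (-3.5 ± 0.68; adjusted p 0.0464). Cep83os, which lies opposite Cep83 and cannot be told apart from it where they overlap, since the library kit marks no strand, had 0, 0.371 and 0.453 CPM in KO GMP, against 11.1, 7.89, 8.997 and 6.75 CPM in KO MEP. WT had 10.8 ± 3.07 CPM in GMP and 11 ± 0.775 CPM in MEP (-4.83 ± 0.94; adjusted p 0.0464).

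The number of genes that departed from WT rested on single libraries. It was 294 (40 positive, 254 negative) without KO GMP library 13, 23 without HET GMP library 8, 3 without KO MEP library 15, and 2 without KO MEP library 13, without WT GMP library 12 or without WT MEP library 12. It was 0 without KO MEP library 6 or 11, without WT GMP library 2 or 5 and without WT MEP library 2 or 5. Over 25 alternatives Ass1 was called in 12, Cep83os in 6 and Kpna6 in 5. When only the 13 KO and WT libraries entered the fit, 0 were called. DESeq2 called 49 genes, which held all 5, and limma called 8, which held 0 of the 5.

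Against HET, 18 of 12458 genes departed (0.144%), 5 positive (0.0401%) and 13 negative (0.104%), and 1287 (10.3%) had an unadjusted p under 0.05. Ass1, Kpna6 and Cep83os were again among them, but the KO libraries are the same as in the contrast with WT, so this is no separate support. The 5 positive ones were Pou2af1, a B cell coactivator (8.39), Arg1, arginase (6.34), Id3, an inhibitor of E proteins (5.33), Ighm, the heavy chain of IgM (4.69), and Rgs1, which dampens G protein signalling (2.33), as log2 differences of differences. The value of Pou2af1 was 4.17 without KO GMP library 15 (adjusted p 0.572), and its call was lost also without KO MEP library 11 (0.0638) or 13 (0.0574). Arg1 lost its call without KO GMP library 6 (adjusted p 0.0677), and Id3 without KO GMP library 6 (0.059) or KO MEP library 6 (0.0568), 11 (0.0638) or 13 (0.0813). Rgs1 had 204, 104 and 87.6 CPM in KO GMP, against 22.77, 13.3, 16.7 and 25.4 CPM in KO MEP, and WT averaged 10.22 ± 2.57 CPM in GMP and 9.03 ± 2.03 CPM in MEP (SD, n = 3 each). It was high in all 3 KO GMP libraries (2.33 ± 0.48 SE against HET; adjusted p 0.0382; called in 19 of 32 alternatives). The call of Rgs1 was lost in 9 of the fits that left out 1 library (adjusted p 0.0519 to 0.103), among them those without KO GMP library 6 and without KO MEP library 11 or 13. Arg1 had 46.1, 12.3 and 0.226 CPM in KO GMP, against 1.00, 1.79, 2.31 and 0.964 CPM in KO MEP (adjusted p 0.0136 against HET), with KO GMP library 15 below all of the KO MEP libraries. The count was 720 without KO GMP library 13, 73 without HET GMP library 8, 54 without HET GMP library 7, 34 without HET MEP library 8, 33 without KO GMP library 6, 29 without HET GMP library 9, 11 without KO MEP library 6 or 11 and 10 without KO MEP library 13.

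A single number for the separation was had by taking, for each title number that occurs in both populations, the GMP minus MEP log2 CPM and its slope on edgeR's WT log2 fold change over the 519 genes called in WT. The differences of single numbers use a prior count of 2, so the WT numbers themselves average 0.869 on this scale and not 1 (slopes of 0.856, 0.882 and 0.87, a description only, since these libraries define the axis). The slopes were 0.73, 0.733 and 0.666 for the KO numbers 6, 13 and 15 (0.71 ± 0.0378, SD, n = 3), and they ran from 0.338 to 0.928 for the 7 HET numbers (0.771 ± 0.2, median 0.845). The 3 KO slopes lay close together and below 6 of the 7 HET slopes, while the HET number 8, which holds the GMP library that stood apart, was the lowest of all. KO minus HET was -0.0609, with p = 0.675 in an exact two-sided permutation test over 120 arrangements, whose smallest possible p is 0.00833. Without HET number 8 it was -0.133 (exact p = 0.0357), and without WT number 2 it was 0.00393 (exact p = 0.925).

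**Figure D5:**
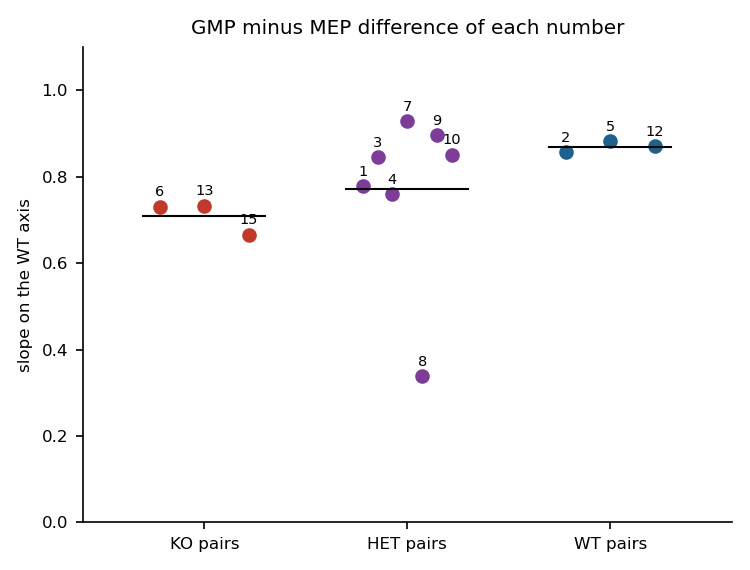
Slope of the GMP minus MEP log2 CPM on the fitted WT log2 fold change over 519 genes, 1 point for each title number, for KO, HET and WT; bars are group means. The KO slopes run from 0.666 to 0.733, HET number 8 lies at 0.338, and the WT points, which define the axis, average 0.869.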

How the data were processed

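RNA of sorted cells was made into libraries with Smart-seq2 and Nextera XT, which mark neither strand nor molecule, per the labels' protocols. The authors deposited whole-number read counts per gene (Ensembl ID), not normalized, in 1 table per population. Per the submitters' processing notes, counting used featureCounts and the build was mm10 (GRCm38); no source used here gives the aligner, the annotation release or a version. The tables also count spike-in RNAs, which were left out of library sizes. Symbols and positions come from GENCODE M21, which named 12349 of 12458 tested genes. The MEP table lists fewer genes, and each has at least 11 reads over its libraries; genes listed in the GMP table alone were not tested.

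All 27 GMP and MEP libraries entered 1 fit of edgeR 4.0.16 (R 4.3.3) with TMM scaling, a filter at a count of 10 (total of 15), 6 groups and the robust quasi-likelihood test. P-values were Benjamini-Hochberg adjusted over 12458 genes, with calls at 0.05. CPM were taken from the scaled library, and the SE is the fold change over the square root of F. No library was dropped or imputed. Differences of differences were contrasts of the same fit. The slopes used log2 CPM with a prior count of 2. The fit was tested on simulated counts. DESeq2 1.42.0, limma 3.58.1, other scalings and filters, subsets, covariates and each library left out were alternatives; the spike-in covariate, the length covariate and the fits of other contrasts without HET GMP library 8 were chosen after seeing the data.

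Members and gene lists were chosen with earlier results of these data known. Named genes are Smarcd2, the 12 largest rises and falls at a mean log2 CPM of 1 or more (without predicted genes and sorting antigens), up to 4 genes of each list with the smallest p, and for the differences of differences up to 10 of each sign and up to 2 of each list. Named outside that rule, after their values were seen, were Elane, Ctsg, Lyz2, Irf8, Csf1r, Klf1, Gata1, Hba-a1, Hbb-bs, Itga2b, Il2rg, Ly6c2, Nkg7, Smarcd3 and the other members listed as called.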

Additional observations from a re-analysis of the deposited data

Results flagged for a closer look

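In KO MEP, 39 genes were checked for a library whose gap to the nearest other value took up most of the group's range (Dixon's test). There were 9 such genes, always with KO MEP library 15: Prtn3 at 19.28, Ltb4r1 at 4.18, S100a8 at 0.964, Prg2 at 53.3, Gata1 at 421, Klf1 at 792, Pf4 at 704 and Igll1 at 51.4 CPM stood above the other 3 libraries, and Rhag at 54.3 CPM stood below them. Chance alone gives such a gap in about 5% of groups. Of 10 measures of libraries and pairs, 1 stood apart: the slope of HET number 8, at 0.338.

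Genes whose GMP-MEP difference in KO departed from that in WT (edgeR's test of the difference itself) were Cep83os (-4.83), Gm5424 (-4.15), Ass1 (-3.73), Kpna6 (-3.5) and 4930523C07Rik (-2.58), as log2 values. Against HET they were Pou2af1 (8.39), Arg1 (6.34), Id3 (5.33), Ighm (4.69) and Rgs1 (2.33) upwards, and Zfp773 (-7.25), Gramd3 (-6.84), Adat2 (-5.47), Cep83os (-5.05), Gca (-4.94), Pcbd1 (-4.35), Tarsl2 (-3.91), Gm5424 (-3.74), Wasl (-3.69), Kpna6 (-3.56), the unnamed ENSMUSG00000090262 (-3.44), Ass1 (-3.36) and 4930523C07Rik (-2.05) downwards. Of these Gramd3 had 29.2 CPM in KO MEP library 15 and at most 2.31 in the other KO MEP libraries. Pou2af1 had 25.1 CPM in KO GMP library 15 and at most 0.743 in the other KO GMP libraries. Over 32 alternatives of the contrast with HET, Tarsl2 was called in 9, Wasl in 11, Pcbd1 in 15 and Gca in 25. Adat2 and Kpna6 were called in 29 each, Gramd3, Cep83os and Ass1 in 30 each, and Zfp773 in 28 of 31.

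The spike-in RNAs, outside the comparisons above, took a mean of 2.76 ± 0.275% of the reads in KO GMP (SD, n = 3), against 0.158 ± 0.0334% in KO MEP (n = 4) and 0.178 ± 0.0474% in WT GMP (n = 3).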

How the results depend on the processing

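Counts of genes called between KO GMP and KO MEP stayed within 1.5 times of 1352 with limma voom (1499; 1034 higher, 465 lower), no filter, a stricter filter (1299; 805 higher, 494 lower), RLE scaling (1296), upper quartile scaling (1283, where the median of all genes was -0.24) and the series as a covariate (1128). DESeq2 gave 2182 (883 higher, 1299 lower), only the 7 KO libraries 581, only the 4 KO libraries of series M34 173, the length index as a covariate 2565, no HET GMP library 8 2045, and the spike-in share as a covariate 3340, of which 397 were among the 1352. Leaving out 1 KO library gave 799 to 2274. Of the WT calls (519), DESeq2 gave 794, limma 5939, only the 6 WT libraries 1274, the length index 1127, the spike-in share 1009, no HET GMP library 8 836, and leaving out 1 library 286 to 503. Of the HET calls (1393), limma gave 5429 and the length index 2608, and leaving out 1 library 1151 to 1849. For KO against WT differences (5), DESeq2 gave 49 (all 5 among them), limma 8 (0 of the 5), only the 13 KO and WT libraries 0, RLE scaling 3, a stricter filter and upper quartile scaling 2 each, the length index 73, the spike-in share 3104, no HET GMP library 8 23, and leaving out 1 library 0 to 294. For KO against HET differences (18), DESeq2 gave 218, limma 85, only the 21 KO and HET libraries 11, the length index 141, the spike-in share 2634, and leaving out 1 library 10 to 720. The cause of these shifts was not tested.

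The labels do not say that a title number marks 1 fetus, and of 13 pairs of same-numbered GMP and MEP libraries 5 deviated together at r over 0.1, and 3 matched best by number. With the number as a replicate block the counts were 684 in KO (641 of them among the 1352), 324 in WT, 970 in HET, 0 for KO against WT and 0 for KO against HET.

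The slope difference of -0.0609 became 0.0658 over every gene tested (exact p = 0.817), and -0.133 to 0.00393 with 1 number left out (exact p from 0.0357 to 0.925). Of single genes, the spike-in covariate turned the log2 fold changes in KO to -0.69 for Aurkb, -0.46 for Calr, -1.14 for Cdk1, -1.38 for Hspa5, -1.02 for Il2rg, 4.29 for Irf4, -0.68 for Xbp1 and 0.24 for Zbtb46, whose KO against HET difference became 4.02; C1qb ran from -1.49 (without KO GMP library 6) to 6.69 with 1 library left out. Over all named genes and alternatives of the KO contrast, the direction and call were kept 2829 times, a call was lost 301 times and gained 80 times, and the sign of an uncalled value turned 75 times. For genes with 0 to 3 reads over a group, depth allows only a bound or a counting interval.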
